A study of Mus musculus with 2 samples.

Results

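The retinoid metabolism genes described here are 9 genes of vitamin A oxidation, binding and breakdown, measured in newborn mouse skin with and without Pnpla1. They were chosen by name, as the probes other than controls whose gene name in the scanner files was Adh1, Adh6a, Adh7, Aldh1a1, Aldh1a2, Aldh1a3, Crabp1, Crabp2 or Cyp26b1. Each had 1 probe on the array, so they are 9 of the 30133 genes measured.

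Retinol, the alcohol form of vitamin A, is oxidised to retinal by alcohol dehydrogenases and short-chain dehydrogenases, and retinal is oxidised to retinoic acid by retinaldehyde dehydrogenases. Retinoic acid is bound in the cytoplasm by cellular retinoic acid-binding proteins, is broken down by CYP26 hydroxylases, and acts on genes through nuclear RAR and RXR receptors. In skin it is a well known regulator of keratinocyte differentiation, of the sebaceous gland and of the hair follicle.

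The study compared skin of Pnpla1+/+ and Pnpla1-/- mice of the strain C57BL/6N on the day of birth (P0). PNPLA1 is an enzyme of the epidermis needed to make acylceramides, lipids of the skin barrier. Controls were littermates of the mutants. The mutant line carries a knockout-first allele without its LacZ and Neo cassettes, which flippase had cut out, and no Cre driver was named for it. Each genotype had 1 Agilent array of 1 colour (Cy3), hybridised with RNA pooled from 6 animals. There was therefore no replicate, no test and no spread between animals, and every difference below is between a pair of pools. Animal, litter, sex and handling cannot be told apart from genotype in this design.

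The labels call the tissue skin, while the design text of the series speaks of epidermis. Markers of dermis, muscle and, apart from Lep, fat were well above background on both arrays. Among them, Col1a2 (collagen of dermal fibroblasts) read 275482 in Pnpla1+/+ skin and 201776 in Pnpla1-/- skin, so the values are those of skin. Pnpla1 itself read 579 in Pnpla1+/+ skin against 114 in Pnpla1-/- skin (-2.07 on the log2 scale after scaling). It went in the direction of the labels, while its Pnpla1-/- signal was still well above background. By quantitative PCR and immunohistochemistry, the authors found neither Pnpla1 mRNA nor its protein in skin of the mutants. What the single Pnpla1 probe of the array read in Pnpla1-/- skin was not tested.

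The probes of 3 genes that differed by at least 2-fold are shown by the first 30 of their 60 bases, written 5′ to 3′ as the array design gives them, because each value below rests on a single probe.
Adh1: gtttccgttggacccgttaattacccatgt
Crabp1: gtttacccacgtgggagaatgagaacaaga
Crabp2: ctgtctctctggcctctactccttatcctt
Over all 9 genes, the longest run of bases that a probe had in common with any other probe of the array was 16, for Aldh1a2. With a probe of another of the 9 genes it was 9 at most. Whether a probe also read the transcript of a related gene was not tested. In the mm9 coordinates of the array design, the Adh6a probe lies at chr3:137994039-137994098, the Adh1 probe at chr3:137952821-137952880 and the Adh7 probe at chr3:137894495-137894554. The Crabp1 probe lies at chr9:54616192-54616251 and the Crabp2 probe at chr3:87757207-87757266. Where the probes fall in the exons or untranslated regions was not analysed here.

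Intensities below are the processed signals of the scanner software before scaling. Differences are on the log2 scale, Pnpla1-/- minus Pnpla1+/+, after each array was divided by the 75th percentile of its signals, 2108 for Pnpla1+/+ and 1734 for Pnpla1-/-. All 9 genes were well above background on both arrays, and none of their spots was flagged or saturated. The error of each difference is the scanner software's own error for the spot, about 0.2 on the log2 scale, and it does not hold the spread between mice. As a second measure, 314 probes printed at least 8 times had a median SD of 0.08 for the difference of a single spot, and of 0.17 where the Pnpla1+/+ intensity was under 300.

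Of the 9 genes, 3 were at least 2-fold lower in Pnpla1-/- skin (Adh6a, Adh1 and Crabp1), 1 was at least 2-fold higher (Crabp2), and 5 differed by less. The shares over the 22382 genes of the array with a difference were 3.04% past 2-fold in the lower direction and 6.69% in the higher direction. The median difference of the 9 genes was -0.48, against 0.00 over all those genes. In bulk skin, fewer cells of a type and less RNA per cell cannot be told apart.

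**Figure D1:**
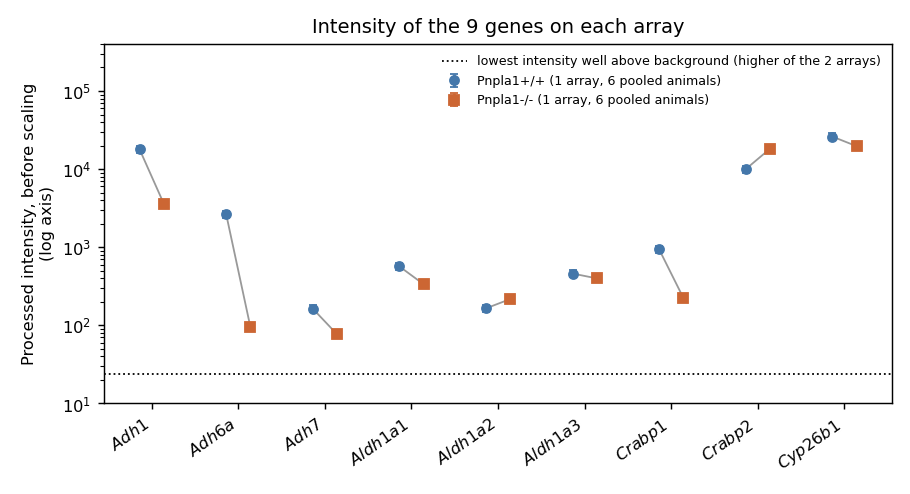
Processed intensity before scaling (log axis) of the 9 genes in Pnpla1+/+ (circles) and Pnpla1-/- skin (squares), 1 array of 6 pooled animals each. Error bars are the scanner software's error, about 10% and smaller than most symbols, and the dotted line is the lowest intensity well above background. Adh6a went from 2646 to 94.95, while Cyp26b1 was at 26105 and 19666.

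The alcohol dehydrogenases, a family with enzymes that oxidise retinol, all had differences below 0, and 2 of the 3 were at least 2-fold lower in Pnpla1-/- skin. Adh6a, a class V alcohol dehydrogenase, had an intensity of 2646 in Pnpla1+/+ and of 94.95 in Pnpla1-/- skin. The difference was -4.52 ± 0.21 (software error), or 22.9-fold lower. Only 5 of the 20683 genes well above background on both arrays had a lower difference. The Pnpla1-/- signal of 94.95 was still 4.37 times the lowest intensity well above background on that array. The size of this difference depended on the background correction, with -3.91 after the normexp model.

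Adh1, the class I enzyme that oxidises both ethanol and retinol, had an intensity of 17911 in Pnpla1+/+ and of 3603 in Pnpla1-/- skin. Its difference was -2.03 ± 0.20 (software error), 4.09-fold lower, and it ranked as number 64 from the lowest of the 20683 genes. Adh7, the class IV enzyme of epithelia, which is highly active on retinol, was dim on both arrays, with 163.5 in Pnpla1+/+ and 76.9 in Pnpla1-/- skin. Its difference of -0.81 ± 0.22 (software error), 1.75-fold lower, was below the 2-fold mark, and passed it only without scaling (-1.09) or after centring on spike-in RNA (-1.24).

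The differences between members of a family do not depend on a factor applied to a whole array. The Adh6a difference minus that of Adh1 was -2.49 ± 0.30 (software error), and minus that of Adh7 it was -3.71 ± 0.31. The Adh1 difference minus that of Adh7 was -1.23 ± 0.30. Each of these gaps exceeded its software error, and over 12 other ways of processing the data the gap of Adh6a to Adh1 lay between -2.49 and -1.91. The family thus differed in size more than in direction.

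**Figure D2:**
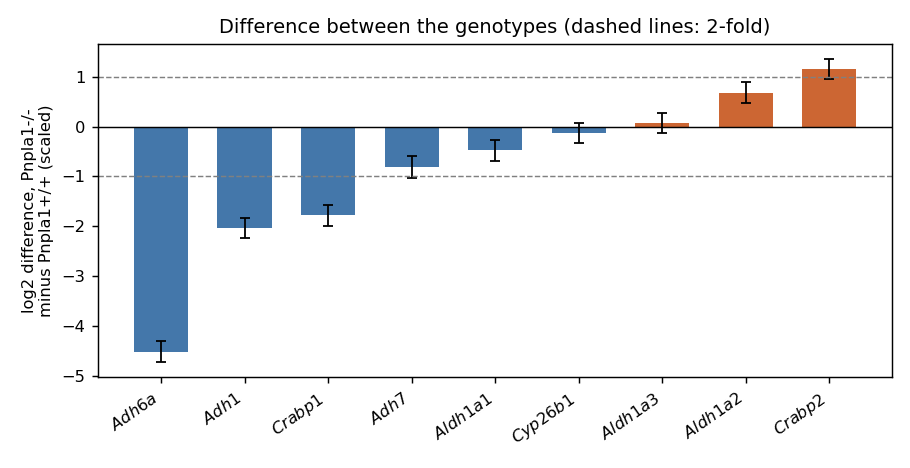
Log2 difference, Pnpla1-/- minus Pnpla1+/+ after scaling to the 75th percentile, for each of the 9 genes, with bars from 0 and error bars of the scanner software's error. Adh6a (-4.52), Adh1 (-2.03) and Crabp1 (-1.78) lie past the lower dashed line and Crabp2 (1.15) past the upper one. The error bars of Cyp26b1 and Aldh1a3 cross 0.

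The Adh genes lie side by side on mouse chromosome 3, in the order Adh7, Adh1, Adh6a, Adh6b, Adh4 and Adh5 in the RefSeq annotation of GRCm38.p6. Their neighbourhood was looked at after the values of the family had been seen. Adh5, the class III enzyme of formaldehyde breakdown, read 161.6 in Pnpla1+/+ and 87.1 in Pnpla1-/- skin, a difference of -0.61. Adh4, a class II enzyme known mainly from liver, was on neither array well above background, and no probe was named Adh6b. Whether a probe of another name read Adh6b was not tested. Of the 5 protein-coding genes on either side, 9 of 10 had a difference, from -0.83 for Trmt10a to 0.85 for Dapp1. After this scaling 0 reached 2-fold in either direction. Over all 22382 genes with a difference, 3.04% were past 2-fold in the lower and 6.69% in the higher direction. A count of 0 among 9 genes is near those shares. Trmt10a, like Adh7, passed 2-fold in 2 of the 12 other settings, with -1.26 after spike-in centring.

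**Figure D3:**
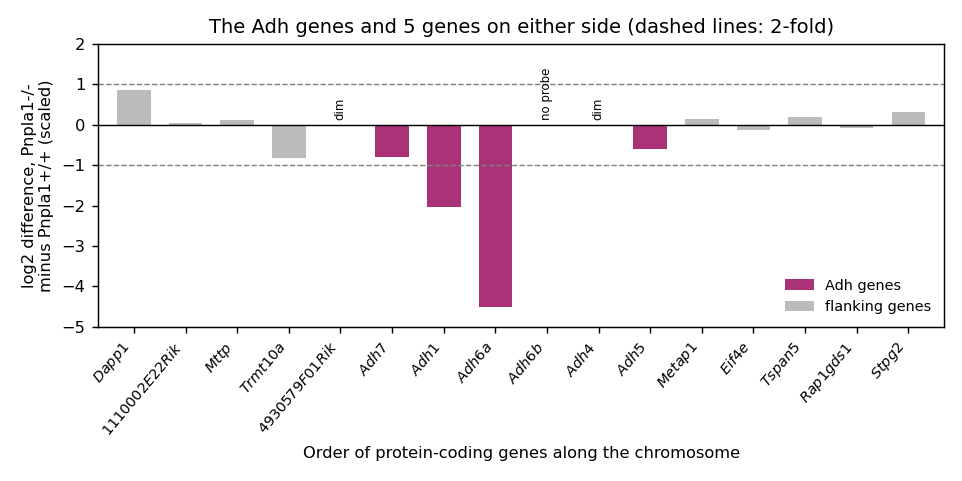
Log2 difference, Pnpla1-/- minus Pnpla1+/+ after scaling, of the Adh genes (purple) and of 5 protein-coding genes on either side (grey), in their order along chromosome 3, where dim stands for genes on neither array well above background. The neighbours Adh1 (-2.03) and Adh6a (-4.52) pass the lower dashed line, Adh7 (-0.81) does not, and no flanking gene passes the dashed lines at 2-fold under this scaling.

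The promoters of these 3 Adh genes are shown because the genes are neighbours with unlike differences, of which those of Adh1 and Adh6a passed 2-fold. Each sequence is the plus strand of GRCm38.p6 from RefSeq, from 250 bases before to 50 after the gene start. Capitals mark TATAAA and hexamers of the kind that retinoic acid receptors bind, searched on both strands. The hexamers were AGGTCA as the consensus, AGTTCA as a variant, GGGTCA as another and GGTTCA as the last. The windows are chr3:138217523-138217822 for Adh7, chr3:138277335-138277634 for Adh1 and chr3:138313036-138313335 for Adh6a.
Adh7: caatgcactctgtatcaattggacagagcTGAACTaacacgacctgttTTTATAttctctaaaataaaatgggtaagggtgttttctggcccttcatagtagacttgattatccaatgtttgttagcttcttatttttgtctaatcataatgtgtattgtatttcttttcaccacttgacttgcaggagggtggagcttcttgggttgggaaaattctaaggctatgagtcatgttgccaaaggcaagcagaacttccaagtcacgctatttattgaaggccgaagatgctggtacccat
Adh1: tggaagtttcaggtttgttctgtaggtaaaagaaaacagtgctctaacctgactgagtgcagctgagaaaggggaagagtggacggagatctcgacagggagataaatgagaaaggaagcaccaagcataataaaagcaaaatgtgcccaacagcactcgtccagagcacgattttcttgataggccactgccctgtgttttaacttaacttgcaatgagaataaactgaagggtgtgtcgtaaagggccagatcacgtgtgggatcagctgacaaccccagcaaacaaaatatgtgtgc
Adh6a: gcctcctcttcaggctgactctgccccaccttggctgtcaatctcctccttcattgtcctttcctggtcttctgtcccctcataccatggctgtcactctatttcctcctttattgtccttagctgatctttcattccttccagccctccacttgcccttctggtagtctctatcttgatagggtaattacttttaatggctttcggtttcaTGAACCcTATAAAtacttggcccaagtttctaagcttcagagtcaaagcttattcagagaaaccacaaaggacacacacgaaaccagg
Adh6a and Adh7 each held 1 TATAAA and 1 hexamer, and the Adh1 window held neither. RefSeq promoters were found for 7 of the 9 genes, in 8 windows. TATAAA was in those of Adh6a, Adh7 and Cyp26b1 and in 13.6% of all 32851 promoters of the table. A hexamer was in those of Adh6a and Adh7 and in 43.7% of all. For Aldh1a1, the window at chr19:20601718-20602017 held a hexamer and its other window did not. Direct repeats of the hexamers spaced by 5 or 2 bases, which overlap with the hexamer search, were in none of the 8 windows and in 0.0974% and 0.268% of all promoters. A match only says that the letters are present.

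The retinaldehyde dehydrogenases, which make retinoic acid from retinal, all differed by less than 2-fold. Aldh1a1 had an intensity of 568 in Pnpla1+/+ and of 336 in Pnpla1-/- skin, a difference of -0.48 ± 0.21 (software error). Aldh1a2, best known from the embryo, had 165 and 217, a difference of 0.68 ± 0.21, or 1.60-fold higher. Aldh1a3 had 460 and 399, a difference of 0.08 ± 0.21 after scaling. The Aldh1a3 difference was smaller than its software error, and its sign turned without scaling (-0.21) and after spike-in centring (-0.36). Aldh1a2 and Aldh1a1 moved apart, with a gap of 1.15 ± 0.30 (software error) between their differences, and of at least 0.95 under every other setting.

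The cellular retinoic acid-binding proteins, which carry retinoic acid in the cytoplasm, moved in opposite directions. Crabp1 had an intensity of 938 in Pnpla1+/+ and of 224 in Pnpla1-/- skin, a difference of -1.78 ± 0.21 (software error), or 3.44-fold lower. It ranked as number 104 from the lowest of the 20683 genes. Crabp2, which delivers retinoic acid to the RAR receptors and is the form abundant in epidermis, had 9993 in Pnpla1+/+ and 18248 in Pnpla1-/- skin. Its difference was 1.15 ± 0.20 (software error), or 2.22-fold higher, and it ranked as number 947 from the highest.

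The difference of Crabp2 was above that of Crabp1 by 2.94 ± 0.29 (software error), and by 2.68 to 2.94 over the 12 other settings. The rise of Crabp2 was under 2-fold without scaling (0.87) and after spike-in centring (0.72), and above 2-fold in the other 10 settings. Crabp1 was at least 2-fold lower in all 12. The opposite directions of this pair were kept in every setting.

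Cyp26b1, the hydroxylase that breaks down retinoic acid, had an intensity of 26105 in Pnpla1+/+ and of 19666 in Pnpla1-/- skin. Its difference of -0.13 ± 0.20 (software error) was smaller than its error. Its relatives Cyp26a1 and Cyp26c1 were on neither array well above background, and Cyp2s1, another cytochrome P450 reported to act on retinoic acid, differed by 0.19. Of the 9 genes, Cyp26b1 and Aldh1a3 were thus those whose difference was within the software error.

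The pathway beyond these 9 genes was described with 63 further genes, of which 61 were on the array and 53 had a difference. Of these 53, 4 lay past 2-fold in the higher and 4 in the lower direction, and their median was 0.02. The shares over all 22382 genes with a difference were 6.69% in the higher and 3.04% in the lower direction. A gene that stood in more than 1 list was counted once.

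The uptake and transport list held 8 genes, of which 7 had a difference, with 1 past 2-fold in the higher and 1 in the lower direction. Rbp2, the cellular retinol-binding protein of intestine, rose from 951 to 2357 (1.59). Rbp7, another cellular retinol-binding protein, went from 3247 to 1046 (-1.35), and Rbp4, the carrier of retinol in blood, from 10867 to 4715 (-0.92). The binding proteins of retinol thus went both ways, as did those of retinoic acid. Stra6, the receptor of Rbp4, was well above background on the Pnpla1+/+ array only and was at least 1.23-fold lower. The scavenger receptors Scarb1 and Cd36 differed by 0.10 and -0.21, Rbp3, the retinol carrier of the eye, by -0.01, and Ttr, which carries Rbp4 in blood, was on neither array well above background.

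None of the 6 genes of retinol esterification and ester hydrolysis reached 2-fold. Lrat, the main retinol esterifying enzyme, differed by 0.70, from 153 to 206 in intensity. Dgat1 and Dgat2, acyltransferases of triglyceride synthesis, differed by 0.44 and 0.12, and Awat2, a wax synthase, by -0.21. Lipe and Pnpla2, lipases of fat stores and Pnpla2 a relative of Pnpla1, differed by 0.56 and -0.06.

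Among 16 further retinol and retinal oxidoreductases, 14 had a difference and 1 reached 2-fold. This was Dhrs9, a short-chain dehydrogenase that oxidises retinol, which rose from 32.1 in Pnpla1+/+ to 421.7 in Pnpla1-/- skin. Its difference of 3.997 was opposite in sign to that of the Adh genes, and it was 2.53 with the normexp correction, the Pnpla1+/+ signal being close to background. Rdh10, the main retinol dehydrogenase of the embryo, differed by -0.17 and Dhrs3, a retinal reductase, by -0.01. The enzymes of the same step of the pathway therefore did not share a direction.

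Of 8 other aldehyde dehydrogenases, 1 reached 2-fold. It was Aldh1a7, a close relative of Aldh1a1, which had 5711 in Pnpla1+/+ and 1635 in Pnpla1-/- skin, a difference of -1.52. Bco2, which cleaves carotenoids, differed by 0.11, while Bco1 was on neither array well above background. Fabp5, a fatty acid-binding protein that can also carry retinoic acid, differed by 0.93, from 202556 to 316530.

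The RAR and RXR receptors all differed by less than 2-fold. Rara, Rarb and Rarg, the retinoic acid receptors, differed by -0.50, -0.42 and -0.06. Rxra, Rxrb and Rxrg, their partners, differed by -0.18, 0.02 and 0.04, and a second probe of Rxra gave 0.26. Ppard, a lipid receptor that also pairs with RXR, went from 2960 to 5870, a difference of 1.27. It was the only gene of this list of 7 past 2-fold. It was under 2-fold without scaling and with spike-in centring (0.84), and past 2-fold in the other 10 settings.

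Of 13 genes known from textbooks to respond to retinoic acid, 11 had a difference, with 1 past 2-fold in the higher and 2 in the lower direction and a median of -0.01. The higher one was Krt13, a keratin of internal epithelia, at 1.15. A second, dimmer probe of Krt13 went the other way, from 1133 to 226.6 (-2.04), so Krt13 has no settled direction. The lower ones were Rarres1, named for its response to retinoic acid, from 5094 to 1144 (-1.87), and Krt19, a keratin of the hair follicle, from 263 to 100.5 (-1.11, and -0.76 with the normexp correction). Tgm2, a transglutaminase, and Rarres2, which encodes chemerin, differed by 0.44 and 0.52. The list as a whole had no common direction, with 5 genes above 0 and 6 below.

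**Figure D4:**
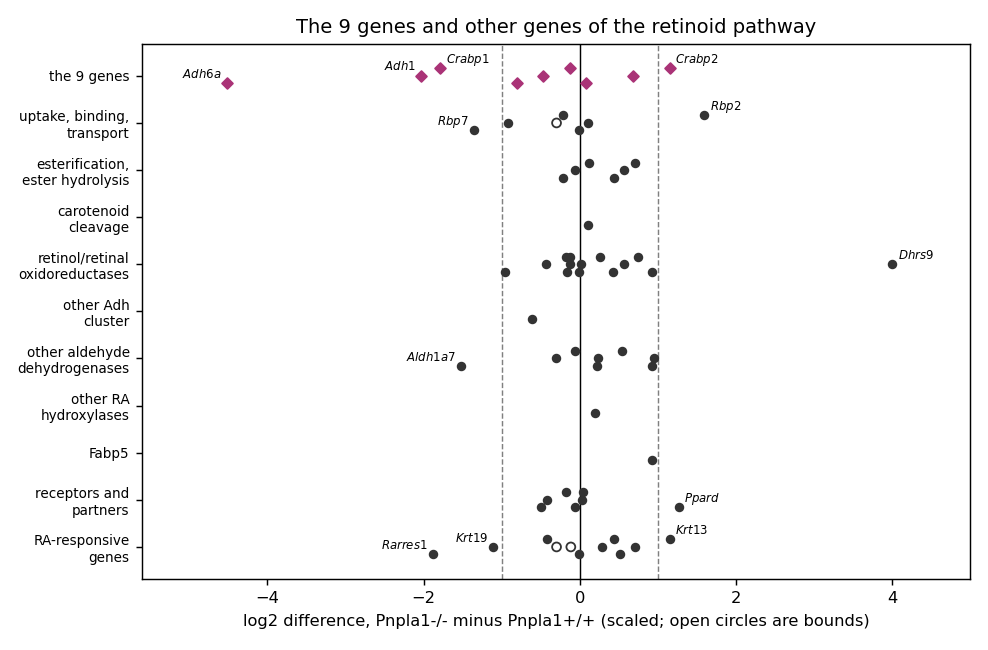
Log2 difference, Pnpla1-/- minus Pnpla1+/+ after scaling, of the 9 genes (diamonds) and of the other retinoid pathway genes by role (circles, with open circles for genes well above background on 1 array only, drawn at their bound). Dashed lines mark 2-fold, and genes past them are named. Most pathway genes lie between the lines, with Adh6a (-4.52) and Dhrs9 (3.997) farthest out.

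Markers of the cell types of skin were read on the same arrays. All 8 markers of hair follicle epithelium were lower in Pnpla1-/- skin, with a median of -0.86, and 3 were at least 2-fold lower, Lhx2 (-1.28), Krt27 (-1.10) and Shh (-1.10). Their intensities summed to 180377 in Pnpla1+/+ and to 83098 in Pnpla1-/- skin, with Krt71 the brightest, and the scaled sums differed by -0.84. Of 7 dermal papilla markers, 6 were lower, with a median of -0.63, a summed intensity of 34262 against 15374 (-0.87 between the scaled sums) and Lef1 the brightest. At least 2-fold lower were 2 of them, Corin (-1.49) and Lef1 (-1.01). The medians of both lists had the sign of the Adh6a, Adh1 and Crabp1 differences, as had those of the dermal fibroblast and melanocyte lists. The part of these cell types in those differences was not tested.

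Of 6 leukocyte markers, 5 were higher, with a median of 1.04 and intensities that summed to 18313 in Pnpla1+/+ and to 20708 in Pnpla1-/- skin (0.46 between the scaled sums). The brightest was Itgam (-0.03, with 2.84 for another of its probes), and Lyz2 (2.35), Ptprc (1.51) and Adgre1 (1.24) passed 2-fold. These 3 differed in the direction of Crabp2 and Dhrs9, and the part of leukocyte RNA in those differences was not tested. The 7 keratinocyte markers had a median of 0.16, with Krt10 the brightest and 1, Krt14 (1.35), past 2-fold.

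Dermal fibroblast markers had a median of -0.16 over 8 genes, and 1 of them, Twist2 (-1.05), was past 2-fold. Medians were 0.04 over 5 sebaceous gland markers, 0.08 over 4 adipocyte markers and 0.07 over 5 skeletal muscle markers. They were 0.39 over 5 endothelial markers and -0.38 over 5 melanocyte markers. None of these genes was past 2-fold by its brightest probe. Dimmer probes of Scd3, a sebaceous gland marker at 0.04, gave 0.57 and 1.02. With the mean over all probes the sebaceous gland median was 0.15. Lep was the only marker that was on neither array well above background. With spike-in centring the medians of the keratinocyte, sebaceous gland, adipocyte, skeletal muscle and endothelial lists turned below 0. The medians of the other lists kept their sign in all 12 settings. Those of hair follicle, dermal papilla, dermal fibroblast and melanocyte markers stayed below 0, and that of leukocyte markers stayed above 0.

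The pools also differed in sex-linked RNA. Xist, transcribed from the inactive X chromosome, was higher in Pnpla1-/- skin by 1.12, while the Y-linked Ddx3y and Eif2s3y were each lower, at -2.19. Whether this had a part in the differences of the retinoid genes was not tested.

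**Figure D5:**
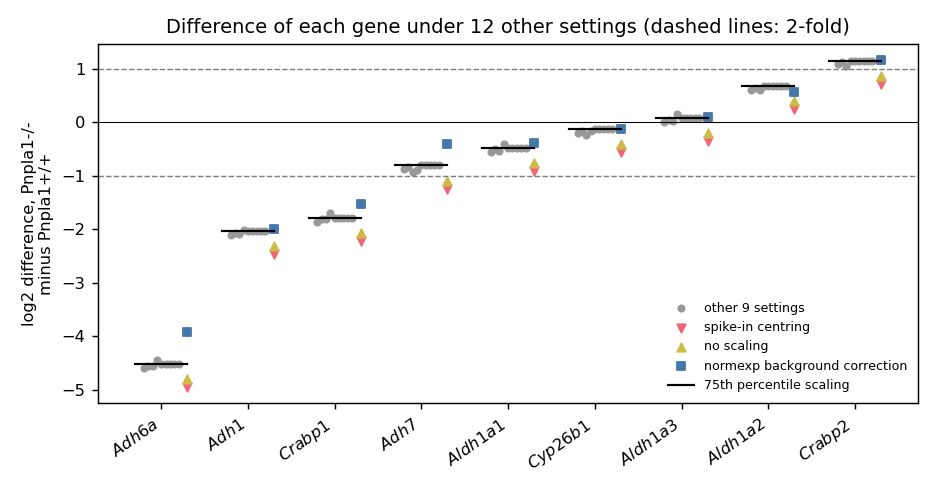
Log2 difference, Pnpla1-/- minus Pnpla1+/+, of each of the 9 genes after scaling to the 75th percentile (black lines) and under 12 other settings (points). Spike-in centring gave the lowest value for every gene, and Adh6a stayed between -4.95 and -3.91, Adh1 between -2.46 and -2.00. Crabp2 drops under the upper dashed line without scaling (0.87) and with spike-in centring (0.72).

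The direction of 8 of the 9 genes was the same in every setting, the exception being Aldh1a3. Adh1 ranged from -2.46 to -2.00, Aldh1a1 from -0.91 to -0.39, Aldh1a2 from 0.25 to 0.68 and Cyp26b1 from -0.56 to -0.12. The 8 spike-in probes, which read RNA added to each sample, were themselves higher on the Pnpla1-/- array by 0.43 after scaling, so centring on them lowered every difference. Among all genes past 2-fold, 68.7% were higher in Pnpla1-/- skin after the main scaling, 58.8% after quantile normalization, 41.2% without scaling and 27.5% after spike-in centring.

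The genes outside the list whose difference lay closest to that of Adh6a were Dapl1 (-4.51), Pla2g5 (-4.54), Slurp1 (-4.75), Chga (-4.79) and Fmo2 (-4.11), by the size of the gap between log2 differences over the 2 arrays. Closest to Crabp2 were Myh7b, Sun3, Stap2, Krt13 and Srebf1, each at 1.15. With 2 arrays this likeness is only a like fold, and for Krt13 it holds for the brighter of its probes.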

How the data were processed

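Total RNA of P0 skin, pooled from 6 animals per genotype, was labelled with Cy3 and hybridised to 1 Agilent array of mouse genes per genotype, both on 1 slide. The authors extracted the signals with Feature Extraction (11.5.1.1, per the submitters' processing notes). The deposited scanner files hold processed intensities on a linear scale, already background-corrected, with flags for spots well above background, saturated or non-uniform. The series' table holds the authors' ratios, which were found to be these intensities divided by an array-wide factor of 2109 for Pnpla1+/+ and 1734 for Pnpla1-/-, and it served as an alternative. Their methods name a global normalization in GeneSpring.

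Here log2 intensities were scaled by the 75th percentile of each array over spots other than controls. Flagged spots were left out (138 flagged in Pnpla1+/+ and 82 in Pnpla1-/-, dropped from both arrays), and spots of a probe were averaged. A gene was given by its probe of highest mean signal. The 43020 spots held 39429 probes. Of the spots, 71.7% (Pnpla1+/+) and 73.3% (Pnpla1-/-) were well above background by the flag of the scanner software. Of 30133 genes, 20683 were so on both arrays, 1715 on 1 array and 7735 on neither. A gene above background on 1 array only was given a bound, the bright signal against the dim one, raised where needed to the faintest signal above background on its array. A bound that did not reach 1-fold was dropped. Names came from the RefSeq table of GRCm38.p6, through accessions for 27508 probes, symbols for 3544 and older symbols for 404, and 7973 kept the name of the array design.

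With 1 array per genotype no test was made, and differences were counted at 2-fold. The number of arrays limits the precision. Slide was the same for both arrays, so it did not separate the genotypes. All 9 genes were named, with listed genes past 2-fold, all genes of uptake, esterification, the receptors and the Adh cluster, Pnpla1, and the 5 genes closest in difference to Adh6a and to Crabp2. A few other listed genes, the sex-linked genes and the genes flanking the Adh cluster were named after their values were seen. The 9 genes and the lists were chosen with earlier results of these data known. Some items of the pathway lists and probes are not reported here. The 14 alternatives were median scaling, no scaling, the 75th percentile over probes above background, quantile and cyclic loess normalization, centring on E1A spike-in probes, normexp background correction with an offset of 50, the authors' ratios, the mean over all probes, omission of genes read on 1 array only, dim probes kept, flagged spots kept, and thresholds of 1.5-fold and 3-fold. Scripts used Python 3.11.15, numpy 2.4.6, pandas 2.3.3, R 4.3.3 and limma 3.58.1, and were checked on simulated data.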

Additional observations from a re-analysis of the deposited data

How the results depend on the processing

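Leaving out a replicate could not be done, and no paired analysis was possible because each genotype has 1 array. The count of the 9 genes at least 2-fold lower was 3 or 4 under all 14 alternatives. The count at least 2-fold higher went from 1 to 0 without scaling, with spike-in centring and at a 3-fold threshold, and to 2 at a 1.5-fold threshold. The median of the 9 genes moved from -0.48 to -0.76 without scaling, -0.91 with spike-in centring and -0.39 with normexp. Of the 63 pathway genes, the count at least 2-fold higher went from 4 to 2 without scaling, with spike-in centring and at 3-fold, to 7 with cyclic loess and to 10 at 1.5-fold. The count lower went from 4 to 7 with spike-in centring and at 1.5-fold, and to 1 at 3-fold. Their median moved from 0.02 to -0.26 without scaling and -0.41 with spike-in centring. Over all genes with a difference, 6.69% were higher and 3.04% lower. These shares became 4.46% and 6.37% without scaling, 3.72% and 9.82% with spike-in centring, 4.33% and 1.45% with normexp, 10.09% and 3.67% of a larger set of 30133 genes without the filter on dim probes, 13.81% and 9.34% at 1.5-fold, and 3.05% and 1.02% at 3-fold. The median over all genes shifted by -0.44 with spike-in centring, -0.28 without scaling and 0.10 without the filter. Of the 8 pathway genes past 2-fold, 7 kept their sign in the 12 settings that keep the 2-fold threshold and 5 stayed past 2-fold in all of them. Krt13 turned to -0.44 with the mean over its probes. Signals near background, as for Adh7 and for Adh6a and Dhrs9 on 1 array, limit the size of their folds.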
